A study of Mus musculus with 15 samples.

Results

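Malignant marrow progenitors that lacked Dnmt3a and carried Idh2 R140Q were compared with wild type megakaryocyte-erythroid progenitors (MEP), using 5 of the 15 libraries of the series. The 3 double mutant libraries came from C57BL/6 mice of genotype Mx1-cre+;Dnmt3a-/-;Idh2 R140Q and the 2 wild type MEP libraries from Mx1-cre+;Dnmt3af/f mice, so the Mx1-cre transgene, whose promoter responds to interferon, was present in both groups. Both were sorted from bone marrow as lineage-negative, cKit+, Sca1-, CD34- and Cd16/32- cells, the surface pattern of MEP. The source labels, however, name the double mutant samples HSPCs (haematopoietic stem and progenitor cells) and the wild type samples MEPs. A difference in cell population between the groups therefore cannot be told apart from genotype. The members of the comparison were taken from the sample titles. The titles also carry the tags M140 for the double mutant and GFP for wild type, which the labels do not explain. The samples are called biological replicates without a statement that each came from its own animal, so p-values may measure only the spread between samples.

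Methylation of CpG dinucleotides was read by reduced representation bisulfite sequencing, in which DNA is cut at CCGG sites, short fragments are kept, and unmethylated cytosines are converted so that they read as thymine. Dnmt3a is one of the enzymes that place new methylation on DNA and is among the genes most often mutated in clonal haematopoiesis and acute myeloid leukaemia. Idh2 is a mitochondrial isocitrate dehydrogenase. Its R140Q form makes 2-hydroxyglutarate, which competes with the cofactor of the Tet enzymes that start the removal of methylation. In normal cells most CpG-rich promoters are unmethylated and most other CpGs are methylated, and leukaemias often gain methylation at the promoters of developmental genes. A level in a sorted sample is an average over its cells, so more cells with a methylated locus and more methylation in each cell cannot be told apart. RNA was not part of the files, so the cell identity given by the labels was not checked against expression.

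In total 531747 autosomal CpGs had at least 10 reads in all 5 libraries. Reads over cytosines numbered 28001420, 31657332 and 29884646 in double mutant libraries and 33938292 and 35204906 in wild type MEP libraries, and the median depth at the CpGs used was 32, 37 and 33 reads against 39 and 39. Sex chromosome content separated the groups: Y chromosome reads came to 357.1, 386.3 and 373.5 per 1000000 autosomal reads in double mutant libraries and to 54.0 and 56.7 in wild type MEP libraries. X chromosome reads were 1.40%, 1.28% and 1.47% of autosomal reads in double mutant libraries and 2.21% and 2.25% in wild type MEP libraries. The tests were restricted to the 19 autosomes, where genotype and sex chromosome content cannot be told apart. Mitochondrial CpGs, which are largely unmethylated in mammals, read as methylated in 1.56%, 0.912% and 1.30% of double mutant reads and in 1.63% and 1.62% of wild type MEP reads. Read depth over Dnmt3a did not check the knockout. Windows of the gene with few double mutant reads were also poorly covered in libraries of mice with Idh2 R140Q alone, and which exons were removed is not stated.

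Sequences from loci with large changes are shown first, with the CpGs that were measured in capitals. At each locus the stretch of at most 300 bases with the most measured CpGs was taken, whatever the size of its change. They were read from the mm9 (NCBIM37) genome on the strand of the gene, 5′ to 3′. Nptx2 and Dab1 have the most CpGs among the 12 promoters named for the size of their change, while Sfrp1, Sox11, Itga2b and Nfix were added after their values were seen, as a Wnt antagonist, a developmental regulator, a platelet integrin and a locus that lost methylation.
Nptx2 promoter, chr5:145306740-145306878, plus strand: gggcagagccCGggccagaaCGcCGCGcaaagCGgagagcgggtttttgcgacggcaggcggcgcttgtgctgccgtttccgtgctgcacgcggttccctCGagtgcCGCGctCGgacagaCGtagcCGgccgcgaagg
Dab1 promoter, chr4:104039885-104040183, plus strand: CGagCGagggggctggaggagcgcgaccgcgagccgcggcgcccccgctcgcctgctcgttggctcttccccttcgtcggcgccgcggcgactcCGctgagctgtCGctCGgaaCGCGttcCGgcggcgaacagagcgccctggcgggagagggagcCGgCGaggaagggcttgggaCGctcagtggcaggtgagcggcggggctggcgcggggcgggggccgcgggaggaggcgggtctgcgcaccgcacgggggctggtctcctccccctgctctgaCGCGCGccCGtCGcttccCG
Sfrp1 promoter, chr8:24521915-24522214, plus strand: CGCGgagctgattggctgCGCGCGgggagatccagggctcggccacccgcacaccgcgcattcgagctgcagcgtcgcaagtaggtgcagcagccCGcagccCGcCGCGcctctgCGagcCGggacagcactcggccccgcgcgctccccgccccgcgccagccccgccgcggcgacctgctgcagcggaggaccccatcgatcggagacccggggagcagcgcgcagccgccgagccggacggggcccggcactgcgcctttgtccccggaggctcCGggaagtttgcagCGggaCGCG
Sox11 upstream stretch, chr12:28027883-28028076, minus strand: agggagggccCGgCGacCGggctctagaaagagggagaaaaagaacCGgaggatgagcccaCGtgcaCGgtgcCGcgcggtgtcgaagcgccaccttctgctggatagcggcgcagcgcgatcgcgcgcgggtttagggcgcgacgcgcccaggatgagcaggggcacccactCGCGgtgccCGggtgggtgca
Itga2b stretch downstream of internal start sites, chr11:102317233-102317396, minus strand: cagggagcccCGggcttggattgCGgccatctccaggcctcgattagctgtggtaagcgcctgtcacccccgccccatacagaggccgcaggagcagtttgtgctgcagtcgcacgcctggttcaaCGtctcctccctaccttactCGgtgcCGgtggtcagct
Nfix coding exon window, chr8:87245682-87245980, minus strand: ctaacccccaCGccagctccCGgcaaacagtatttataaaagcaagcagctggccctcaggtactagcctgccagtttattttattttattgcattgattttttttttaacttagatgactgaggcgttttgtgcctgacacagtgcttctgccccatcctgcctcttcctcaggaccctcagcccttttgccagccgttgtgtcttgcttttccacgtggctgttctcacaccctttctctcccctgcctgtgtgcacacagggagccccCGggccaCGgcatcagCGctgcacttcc

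The Nptx2 stretch holds its annotated start site at 145306756 and 22 CpGs, of which 11 were measured. Their mean level was 76.2%, 79.3% and 80.3% in the double mutant libraries and 8.45% and 6.42% in the wild type MEP libraries. In Dab1, 17 of 48 CpGs were measured, at mean levels of 61.3%, 65.2% and 66.9% in the double mutant and 2.50% and 1.80% in wild type MEP. The Sfrp1 stretch spans the start site at 24521974, and its 15 measured CpGs averaged 54.0%, 58.8% and 51.5% against 0.773% and 0.800%. In Sox11 the 10 measured CpGs upstream of the start site averaged 45.7%, 51.4% and 41.6% in the double mutant and 12% and 9.06% in wild type MEP. Itga2b had 5 measured CpGs at 78.1%, 80.5% and 64.1% against 1.26% and 4.61%. In Nfix the order was turned round, with 5 measured CpGs at 8.48%, 9.10% and 11.5% in the double mutant and 79.5% and 72.4% in wild type MEP. At each of these stretches every double mutant library lay on the same side of both wild type MEP libraries. The loci were picked by their values, so this follows from the choice.

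Averaged over all CpGs, each double mutant library had a higher level than both wild type MEP libraries. The mean level was 53.6%, 54.3% and 53.0% in double mutant libraries and 48.5% and 50.5% in wild type MEP libraries, a difference of 4.13 points between 53.6% ± 0.647 (SD, n = 3) and 49.5% ± 1.40 (SD, n = 2). An exact two-sided permutation test gave p = 0.1, which is the smallest value that 3 against 2 libraries can reach. In the exact permutation tests all 45 mean levels compared had p = 0.1, and adjustment over this family left it at 0.1.

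CpGs were then classed by their level in wild type granulocyte-macrophage progenitors (GMP), which are outside the comparison. Of the CpGs used, 516547 could be classed. At the 213301 CpGs below 20% in wild type GMP, mean levels were 6.45%, 7.51% and 6.41% in double mutant libraries and 2.21% in each wild type MEP library, a difference of 4.58 points. The wild type MEP libraries were nearly identical there. Mitochondrial levels were no higher in the double mutant, but what incomplete conversion contributes to this difference was not tested. At the 67538 CpGs between 20% and 80%, double mutant libraries had 63.5%, 64.7% and 61.8% and wild type MEP libraries 56.6% and 60.0%, and their difference became 3.28 points without wild type MEP replicate 1 and 6.72 points without wild type MEP replicate 2. At the 235708 CpGs above 80%, the levels were 93.5%, 93.5% and 92.5% against 88.0% and 91.3%. This last difference of 3.52 points rested in part on a single library, being 1.86 points without wild type MEP replicate 1 and 5.18 points without wild type MEP replicate 2.

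**Figure D1:**
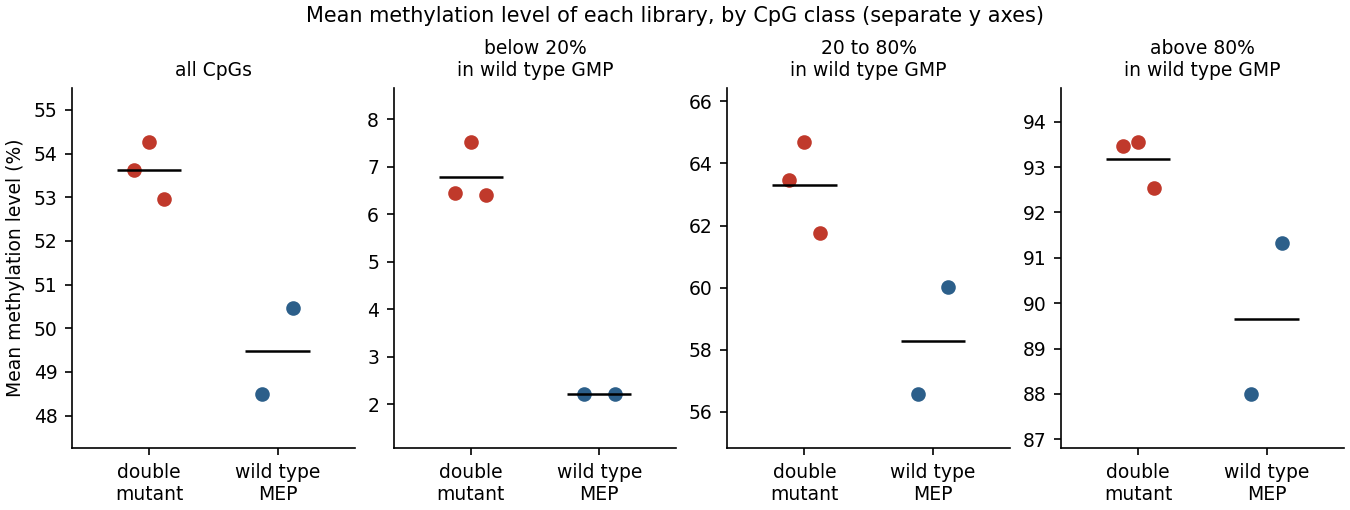
Mean methylation level in percent (y axis, a separate scale in each panel that does not start at 0) of each double mutant (left) and wild type MEP (right) library, for all CpGs and for 3 classes of CpG set in wild type GMP. Points are libraries and bars are group means; in every panel the 3 double mutant libraries lie above both wild type MEP libraries, and the wild type MEP libraries lie farther apart above 80% (88.0% and 91.3%) than below 20% (2.21% each).

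Full methylation was more common in the double mutant. CpGs above 90% made up 41.4%, 40.8% and 39.2% of those measured in double mutant libraries and 22.5% and 31.2% in wild type MEP libraries. CpGs below 10% made up 35.4%, 34.0% and 35.9% in the double mutant and 38.6% and 38.8% in wild type MEP. When every CpG was thinned to 10 reads, which removes the difference in depth, all reads were methylated at 32.0%, 32.0% and 30.7% of CpGs in double mutant libraries and at 16.6% and 23.4% in wild type MEP libraries.

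The gain at CpGs that were low in wild type GMP varied with place. In promoters, taken as 1 kb on either side of annotated start sites, such CpGs averaged 4.79% ± 0.463 (SD, n = 3) in the double mutant and 1.15% ± 0.0323 (SD, n = 2) in wild type MEP. In coding exons they averaged 14.1% ± 1.47 (SD, n = 3) and 4.32% ± 0.00702 (SD, n = 2). Intergenic, intronic and untranslated or noncoding exon CpGs lay between these, with differences of 7.27, 6.91 and 7.63 points. The difference also varied with the bases on either side of the CpG. Of the 10 flank contexts, TCGA had the largest difference (8.06% in the double mutant against 2.05% in wild type MEP) and ACGT the smallest (4.84% against 2.30%). CCGG, the context at the restriction cut, differed by 5.82 points over 78926 CpGs, and GCGC by 3.22 points.

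Across 68179 windows of 1 kb with at least 3 measured CpGs (median 4), gains outnumbered losses. In the quasi-binomial model 7884 windows were higher in the double mutant, 11.6% of those tested, and 1777 were lower, 2.61% of those tested. A call needed an adjusted p (Benjamini-Hochberg over all windows) under 0.05 and a difference of at least 10 points. Rising windows had a median level of 65.7% in the double mutant and 31.2% in wild type MEP, and falling windows 34.7% and 67.5%. A switch across most of the scale was seen in 199 windows that were above 50% in the double mutant and below 10% in wild type MEP, and in 44 windows that were below 10% in the double mutant and above 50% in wild type MEP. Without regard to a test, all double mutant libraries lay above both wild type MEP libraries in 39.1% of windows and below both in 7.8%. With limma as the test, 4770 windows were higher and 716 lower, and without wild type MEP replicate 2 the count of lower windows was 995.

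**Figure D2:**
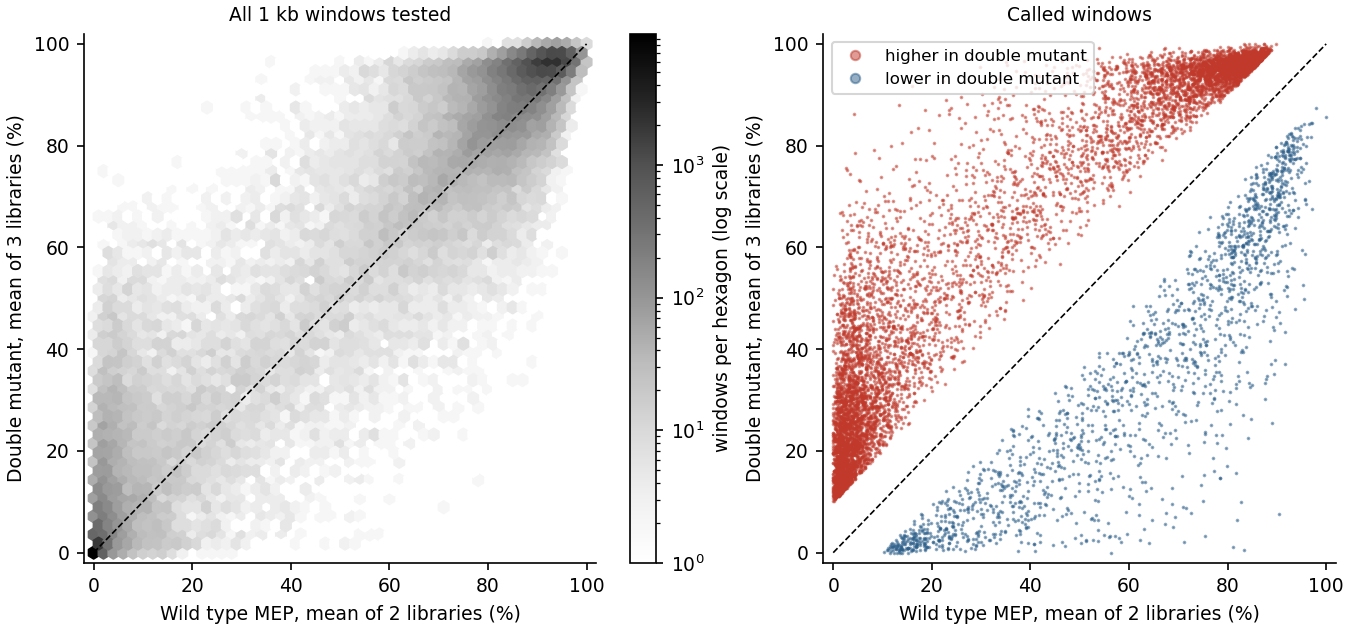
Mean level of each 1 kb window in wild type MEP (x axis, percent, mean of 2 libraries) against the double mutant (y axis, percent, mean of 3 libraries), for all windows as a density on a log scale (left) and for called windows as points (right), with the diagonal of equal levels dashed. The 7884 higher windows fill a column near 0 on the x axis and a band at high levels, and the 1777 lower windows spread below the diagonal.

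Rises were most frequent where wild type GMP were low or intermediate. Of windows below 20% in wild type GMP, 16.2% were higher and 0.808% lower. Between 20% and 80% the shares were 19.5% and 8.49%, and above 80% they were 5.99% and 1.82%. Windows above 90% in wild type MEP cannot rise by 10 points. Among the low windows 35.2% of those in coding exons were higher, against 25.7% of intergenic and 12.6% of promoter windows. CpG-dense windows (CpG observed over expected of at least 0.6 and GC of at least 55%) were higher in 15.4% and lower in 0.219%, while the remaining windows were higher in 10.9% and lower in 3.02%. The median rising window held 24 CpGs in the genome, the median falling window 18 and the median window tested 21.

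The called windows were set beside the other libraries of the series, which entered the model only through the shared dispersion. Windows were called on their double mutant and wild type MEP levels, so the double mutant stood out by selection. For the values below no share over all windows was computed. In 91.2% of rising windows all double mutant libraries also lay above both wild type GMP libraries, and in 94.0% of falling windows all lay below them. Rising windows had a median of 28% in Dnmt3a knockout MEP, 35.8% in Idh2 R140Q MEP and 29.9% in wild type GMP, against 65.7% in the double mutant. Falling windows had medians of 55.3%, 70.5% and 68.5% in the same order, against 34.7% in the double mutant. Reads of the plus and minus strand, where both could be used, differed in the same direction in 97.3% of rising and 84.4% of falling windows. The calls were made on the sum of these reads, so agreement in direction was favoured by the selection.

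Double mutant libraries were alike but not equal. The median absolute difference between their window levels was 2.11 to 2.41 points, against 2.91 points between the wild type MEP libraries and 3.76 to 5.34 points between the groups. Replicate 2 was the highest of the 3 in 3610 of the 7884 rising windows, ahead of replicate 1 (2168) and replicate 3 (2106). The range over the 3 libraries exceeded 25 points in 287 rising and 88 falling windows.

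Called windows were joined into runs where no tested window lay between them and their starts were at most 2 kb apart, so that a run can step over a window that was not tested. Rising windows formed 832 runs, 129 of them with such a step, that held 1917 windows, or 24.3% of all rising windows, and 53 runs had at least 4 windows. Falling windows formed 43 runs with 89 windows (5.01%), none longer than 3. The longest runs of rises, 6 windows each, lay at Hoxd3, Dmrta2 and Msx1, which encode developmental transcription factors. At Hoxd3 (chr2:74572001-74580000) the run averaged 32.1% in the double mutant and 8.06% in wild type MEP. Runs of 5 covered En1, Wt1, Foxc2, Nkx2-1 and Tbx3, among others, and the run at Odz4, a teneurin that guides neuronal wiring, averaged 42.0% against 2.88%. Runs of 3 falling windows were found at Dab2ip, Fry and Gse1, of which Fry averaged 9.87% in the double mutant and 68.9% in wild type MEP.

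The largest rises among windows with at least 4 CpGs and no overlap between the groups were spread over introns, exons, promoters and intergenic sequence. An intronic window of Gcnt2, the enzyme that branches the I blood group antigen (chr13:40958001-40959000, 4 CpGs), had 94.5%, 87.1% and 93.4% in double mutant libraries and 20.3% and 11.8% in wild type MEP libraries. A coding exon window of Kcnk12, a potassium channel subunit (chr17:88145001-88146000, 6 CpGs), had 89.0%, 91.4% and 83.8% against 14.4% and 12.3%. These differences of 75.6 and 74.7 points had adjusted p = 3.09e-07 and 1.57e-05. Idh2 R140Q MEP had 73.6% and 22.8% at Kcnk12 and Idh2 R140Q GMP 90.5% and 56.3%, against 26.5% and 20.2% in wild type GMP, while Dnmt3a knockout MEP had 13.8% and 10%.

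Promoters gave further named rises. Fam19a5, which encodes a secreted protein of the nervous system, had 77.9%, 87.5% and 60.3% at an annotated start site (chr15:87455001-87456000, 6 CpGs) in the double mutant and 4.32% and 1.15% in wild type MEP. Gabra5, a subunit of the receptor for the neurotransmitter GABA, had 90.3%, 95.5% and 92.5% at 5 promoter CpGs against 13.9% and 30.5%. Nptx2, a neuronal pentraxin found at synapses, had 74.9%, 76.6% and 76.9% over 26 promoter CpGs against 11.7% and 12.2%, a difference of 64.2 points with adjusted p = 6.84e-10. Pclo, a scaffold of the presynaptic zone, varied more among the mutants, with 48.2%, 77.8% and 64.3% against 2.41% and 0.952%. Dab1, the adaptor of reelin signalling in neurons, had 55.2%, 64.1% and 66.6% over 26 CpGs against 3.2% and 3.43%. In each of these genes the lowest double mutant library lay far above the highest wild type MEP library. Overlap was excluded by the rule that named them.

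Beyond these, intergenic rises included a window 1082012 bp from the nearest start site, that of Igsf11, a cell adhesion molecule, with 80.3%, 81.3% and 73.9% in the double mutant and 3.5% and 5.49% in wild type MEP. A window 17145 bp from Rps24, a ribosomal protein gene, had 81.9%, 87.8% and 71.6% against 14.8% and 13.1%, and an Idh2 R140Q MEP library reached 74.2% there while the other had 8.93%. An intronic window of Tmie, needed for hearing, had 85.9%, 84.6% and 80% against 15.7% and 18.7%, with 45.5% and 31.4% in Idh2 R140Q MEP. The window 18455 bp from Cacng4, a regulatory subunit of calcium channels, had 92.5%, 96.8% and 97.2% against 35.7% and 23.7%. The other named rises were windows at Gm10479 and Gm15751, gene models without a known role, and the promoters of Gm16745, 6030422M02Rik and Fitm1. Fitm1, which serves lipid droplet formation, had 92.4%, 90.9% and 96.3% in the double mutant and 44.0% and 23.3% in wild type MEP.

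The named falls were likewise large. A window 21543 bp from Cd300a, an inhibitory receptor of leukocytes (chr11:114773001-114774000), had 0%, 0.592% and 2.67% in double mutant libraries and 76.7% and 85.3% in wild type MEP libraries, from 97, 169 and 150 reads against 103 and 116. These reads are summed over CpGs, so a read that covers several CpGs is counted at each. If the 97 counts were independent, a zero among them would allow a level of up to 3.09% by counting error alone. With reads counted more than once the limit is higher. An intronic window of Myof, a membrane repair protein, had 8.11%, 14.3% and 7.49% against 81.5% and 84.1%. At Nfix, a nuclear factor I transcription factor, a coding exon window had 14.2%, 18.9% and 17.9% against 82.5% and 77.4% (adjusted p = 6.24e-07). All 5 of its CpGs were lower in every double mutant library than in both wild type MEP libraries.

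Further falls were found near Spry4, an inhibitor of receptor tyrosine kinase signalling, with 1.52%, 0% and 0% in the double mutant and 79.0% and 87.5% in wild type MEP, and within Pstpip2, a membrane-bending protein of macrophages, with 2.67%, 6.37% and 5.88% against 68.0% and 69.8%. Ehmt2, a histone H3 lysine methyltransferase, had 27.8%, 23.9% and 25% at an intronic window against 86.8% and 91.3%. An exonic window of Pttg1ip outside coding sequence had 17.5%, 8.11% and 18.7% against 69.3% and 87.5%. The window 4007 bp from Pink1, a kinase of mitochondrial quality control, had 18%, 11.6% and 17.3% against 68.8% and 94.7%, the widest gap between the wild type MEP libraries among the named falls.

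**Figure D3:**
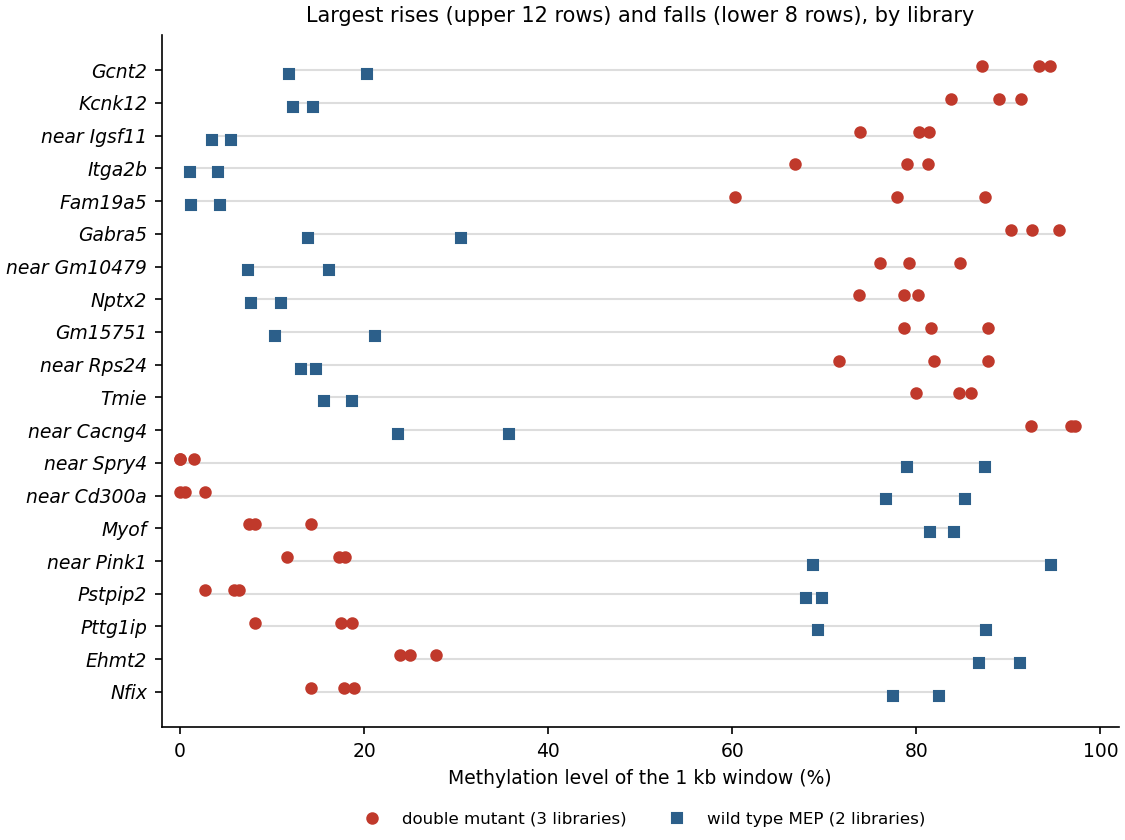
Methylation level in percent (x axis) of the 20 named 1 kb windows (rows, by gene or nearest gene), with each double mutant library as a circle and each wild type MEP library as a square below it. The upper 12 rows are rises, in which all circles lie to the right of both squares, and the lower 8 rows are falls, in which all circles lie to the left.

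At promoters the balance leaned further to gains. Of 16269 promoters 1889 (11.6%) were higher and 162 (0.996%) lower in the double mutant. The rising promoters had a median of 31.5% in the double mutant and 5.26% in wild type MEP, and 433 of them exceeded 50% in the double mutant. The 162 falling promoters had medians of 24.7% and 55.2%. Most were intermediate in wild type MEP, where 116 of the 162 lay between 20% and 80%. Limma called 58 promoters lower, and 84 were lower without wild type MEP replicate 2. The named promoter falls were those of Gm13848, an uncharacterised transcript (5.0%, 12.4% and 3.57% against 63.8% and 74.6%), Cldn4, a tight junction protein (25.8%, 22.1% and 23.0% against 71.0% and 84.3%), Nfic, another nuclear factor I gene (55.8%, 49.7% and 33.7% against 91.4% and 93.4%), and Dab2ip, a Ras GTPase-activating protein (48.1%, 44.9% and 33.5% against 80.3% and 92.9%). The Nfic fall was that of the start site at 80863299, read at 6 CpGs. Another Nfic promoter window (chr10:80893001-80894000, 23 CpGs) had 0.579%, 0.204% and 0% against 0% and 0% and was not called.

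Levels of single CpGs were followed across 4 promoters. In Nptx2 all double mutant libraries exceeded both wild type MEP libraries at 25 of 26 CpGs, in Dab1 at 26 of 26, in Sfrp1 at 27 of 27 and in Sox11 at 30 of 32. The difference of group means ran from 19.3 to 90.9 points over the Nptx2 CpGs and from 14.5 to 88.8 points over those of Dab1. In Sfrp1 it ran from 22.4 to 82.7 points. Sox11 also held a CpG at which all double mutant libraries were lower, by 12.7 points on average (difference -12.7). The rise covered nearly all measured CpGs of these promoters, at unequal size. The promoters were chosen for their rise or after their values were seen, so such counts follow from the choice. Over all promoters, all double mutant libraries lay above both wild type MEP libraries in 33.8%, and the share over single CpGs was not computed.

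**Figure D4:**
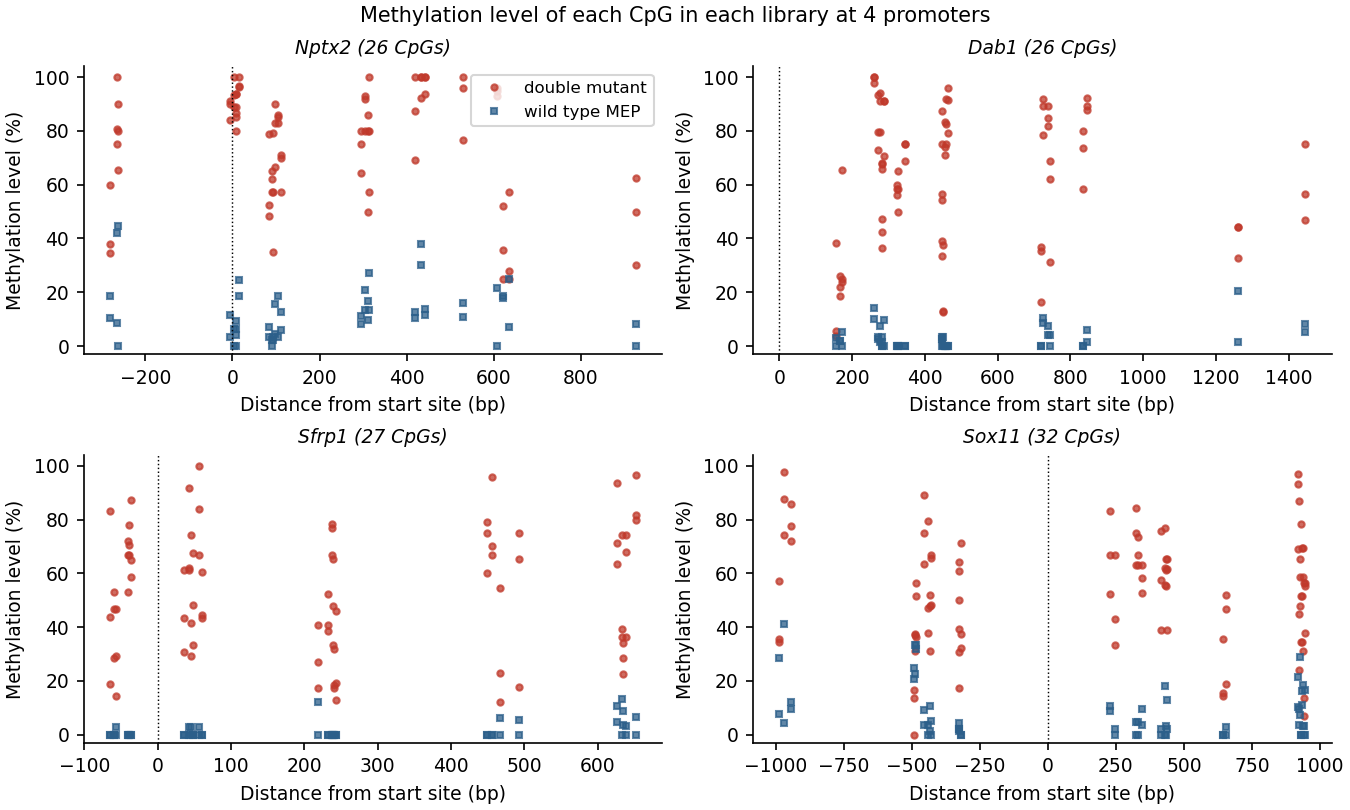
Methylation level in percent (y axis) of each measured CpG against its distance in bp from the most upstream annotated start site of the promoter (x axis, dotted line at 0), with a circle for each double mutant library and a square for each wild type MEP library. Circles lie above squares at 25 of 26 CpGs in Nptx2, 26 of 26 in Dab1, 27 of 27 in Sfrp1 and 30 of 32 in Sox11. These promoters were chosen by their values.

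Gene groups were then read at a single promoter per gene, the one with the most measured CpGs. Counts of alternatives under which a gene's call was lost leave out the stricter limit of 25 points. Over all 14503 genes, 1680 such promoters (11.6%) were higher and 116 (0.8%) lower, and the median difference was 0.314 points. Developmental transcription factors had the highest share of the 11 lists, with 60 of 103 (58.3%) higher and 0 lower, and a median difference of 13.8 points. Median differences in the other lists were 5.89 points for Wnt antagonists, 3.98 for germline, 3.94 for imprinted, 2.37 for lymphoid, 1.93 for stem and early progenitor and 1.82 for granulocyte and macrophage genes. They were 0.267 for leukaemia and tumour suppressor, 0.119 for DNA methylation, 0.112 for ribosomal protein and -0.159 for erythroid and megakaryocyte genes. All double mutant libraries lay above both wild type MEP libraries for 95 of the 103, against 33.8% of all promoters, and below both for 0, against 7.1% of all promoters. At an unadjusted p under 0.05 the quasi-binomial test had 94 of the 103 higher and 0 lower, and limma called 58 higher and 0 lower. Over all 14503 genes the same p was reached by 22.5% higher and 2.51% lower, and limma called 8.74% higher and 0.283% lower. The medians over the 103 promoters were 19.15%, 20.6% and 17.4% in double mutant libraries and 3.38% and 3.28% in wild type MEP libraries. The same promoters had medians of 2.44% and 3.06% in Dnmt3a knockout MEP, 4.54% and 3.52% in Idh2 R140Q MEP and 3.64% and 3.73% in wild type GMP.

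These factors belong to families that pattern the embryo. The family counts stand beside 58.3% higher over the list and 11.6% higher over all genes. Iroquois (Irx) genes had 5 of 6 promoters higher, led by Irx2 with 49.0%, 59.1% and 47.4% in the double mutant and 4.52% and 3.37% in wild type MEP, and Irx5 was the member with the smallest difference, 4.60 points. Nkx genes had 5 of 6 higher, with Nkx2-6 at 36.7%, 39.2% and 41.2% against 6.50% and 7.11%. Forkhead (Fox) genes had 8 of 11 higher, with Foxc2, a factor of mesoderm and lymphatic vessels, at 45.1%, 53.8% and 47.6% against 6.74% and 8.96%, and Foxc1 at 2.00%, 2.52% and 2.32% against 0.196% and 0.411%. Foxc1 was not called.

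Among Sox genes 4 of 6 were higher, where 11.6% of all genes were. Sox11, active in neural progenitors, had 50.3%, 61.9% and 51.5% over 32 CpGs in the double mutant and 7.19% and 7.46% in wild type MEP, and Sox2, a pluripotency factor, had 30.2%, 38.6% and 38% against 3.02% and 3.21%. Pax genes had 4 of 7 higher, with Pax1 at 40%, 59.4% and 50% against 9.54% and 6.60%. T-box genes had 3 of 8 higher, among them Tbx18, with 44.4%, 61.4% and 35.7% against 1.68% and 1.90%, while Tbx1 had 11.2%, 14.8% and 11.1% against 9.65% and 11.3% and was not called. Basic helix-loop-helix genes had 7 of 13 higher, with Twist1 at 39.1%, 32.7% and 39.5% against 1.58% and 4.60%. Neither Gata4 nor Gata6 was called, and the smallest difference of the group was -0.404 points at Vax2, an eye homeobox gene.

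**Figure D5:**
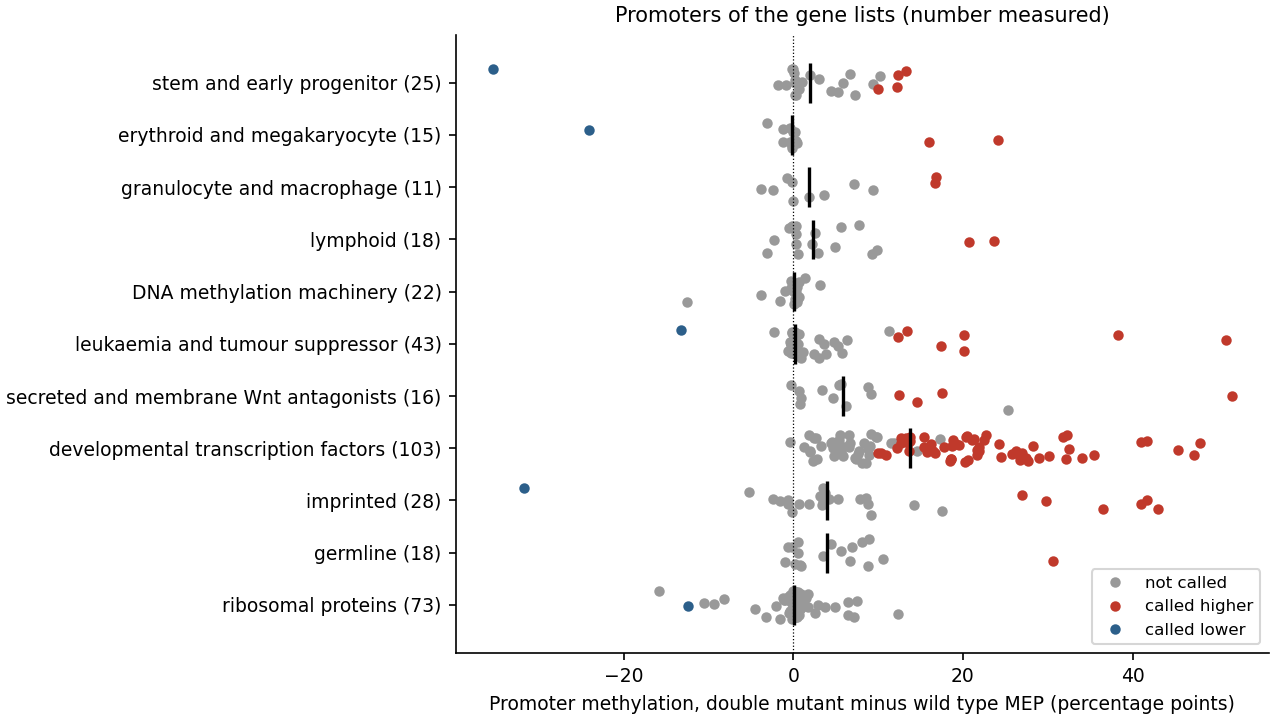
Difference in promoter methylation, double mutant minus wild type MEP, in percentage points (x axis) for the promoters of 11 gene lists (rows, number measured in brackets), 1 promoter per gene. Red points are called higher, blue points called lower, grey points not called, and black bars are list medians; developmental transcription factors lie to the right with a median of 13.8 points, and ribosomal protein genes are centred at 0.112 points.

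Ribosomal protein genes, which are active in every cell, had a median difference of 0.112 points. None of 73 promoters was higher (11.6% of all genes) and 1 was lower (0.8% of all genes) in the quasi-binomial test. At an unadjusted p under 0.05 in that test 3 were higher (22.5% of all genes), and limma called 0 in either direction. Over all genes limma called 8.74% higher and 0.283% lower. The list had medians of 1.08%, 0.946% and 1.26% in double mutant libraries and 0.891% and 1.00% in wild type MEP libraries. Not every member was unmethylated. Of the 73 promoters, 61 lay under 20% in wild type MEP, and single levels reached 97.7% in the double mutant and 97.4% in wild type MEP. The one that fell was Rpl35, with 4.92%, 13.2% and 11.1% against 22.1% and 22.2%, and its call was lost without double mutant replicate 1 or 3, without either wild type MEP library and with limma (adjusted p from 0.0599 to 0.305).

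Genes of DNA methylation and demethylation had 0 of 22 promoters called in either direction by the quasi-binomial test and by limma. Of all genes limma called 8.74% higher and 0.283% lower, and the quasi-binomial test 11.6% higher and 0.8% lower. At an unadjusted p under 0.05 in that test 0 of the 22 were higher (22.5% of all genes) and 1 lower. Dnmt3a itself had 0.649%, 1.51% and 0% in the double mutant and 0% and 0% in wild type MEP at 11 promoter CpGs. Idh2 had 0.461%, 0.249% and 0.576% against 0% and 0.224%. Tet2, a demethylation enzyme and a frequent target of mutation in leukaemia, had 1.08%, 0% and 0% against 0.508% and 0%. Tet1, another such enzyme, had 9.95%, 16.1% and 5.03% against 25.3% and 20.6%, with adjusted p = 0.0611, and was called lower only without double mutant replicate 2 (adjusted p = 0.0285). The 3 further Dnmt3a promoters, read at 4 to 7 CpGs each, were not called, with mean levels of 11.5%, 96.2% and 95.2% in the double mutant against 10.6%, 92.5% and 92.7% in wild type MEP.

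Of the Wnt antagonists, which restrain a signal used by stem cells, 4 of 16 promoters were higher and 0 lower. At an unadjusted p under 0.05 the quasi-binomial test had 11 of the 16 higher (22.5% of all genes) and 0 lower, and limma called 3 higher and 0 lower. Sfrp1, a secreted decoy for Wnt ligands, had 49.1%, 60.3% and 50.7% over 27 CpGs in the double mutant and 2.08% and 1.23% in wild type MEP, a difference of 51.7 points with adjusted p = 8.93e-09. Axin2, a feedback inhibitor inside the cell, had 21.6%, 18.4% and 19.6% against 3.22% and 1.36%. Frzb, a relative of Sfrp1, had 16.0%, 19.4% and 13.2% against 1.81% and 1.38%. Nkd1, an antagonist that binds Dishevelled, had 23.6%, 14.5% and 6.29% against 3.79% and 0.971%, and lost its call under 7 alternatives (adjusted p from 0.0507 to 0.236). Without double mutant replicate 1 its difference of 12.4 points became 8.02. Sfrp5 had 41.9%, 47.1% and 30.3% against 15.8% and 13% at 3 CpGs and was not called (adjusted p = 0.1004), and Sfrp2 had 10.9%, 9.30% and 7.27% against 9.21% and 7.79%.

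Leukaemia and tumour suppressor genes had 7 of 43 promoters higher (16.3%, against 11.6% of all genes) and 1 lower. Limma called 4 higher (8.74% of all genes) and 0 lower. Wt1, a zinc finger factor mutated in acute myeloid leukaemia, had 51.9%, 69.4% and 57.6% in the double mutant and 7.82% and 9.40% in wild type MEP. Id4, an inhibitor of helix-loop-helix factors, had 36.9%, 46.5% and 37.4% over 31 CpGs against 2.21% and 1.85%. Mgmt, a DNA repair enzyme, had 27.6%, 27.7% and 44.5% against 11.2% and 15% at 4 CpGs, and its call was lost under 5 alternatives, among them those without double mutant replicate 3 and without either wild type MEP library (adjusted p from 0.0714 to 0.194). Esr1, the oestrogen receptor, was the member that fell, with 6.79%, 17.6% and 5.96% against 19.7% and 27.0%. Its call was lost under 5 alternatives, among them limma and those without double mutant replicate 1 or 3 or wild type MEP replicate 2 (adjusted p from 0.0813 to 0.279).

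The cell cycle inhibitors of the Cdkn2 locus were not called at their promoters with the most CpGs. Cdkn2b, which encodes p15, had 7.69%, 6.67% and 5.80% over 11 CpGs against 0.379% and 0.395%. The groups did not overlap and the adjusted p was 0.0314, but the difference of 6.33 points was under the 10 points asked for. Cdkn2a had 3.28%, 2.75% and 4.59% over the 32 CpGs at start sites from 88940523 to 88940557 of chromosome 4, against 0.984% and 1.24%. A second Cdkn2a promoter, at 88928096 and read at 5 CpGs, had 23.5%, 21.1% and 50% against 4.86% and 7.77% and was higher (adjusted p = 0.0438). That call was lost under 7 alternatives, among them limma and those without double mutant replicate 1 or 3 or either wild type MEP library (adjusted p from 0.0575 to 0.333), and the difference of 25.2 points became 16.0 without double mutant replicate 3.

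Markers of blood lineages were mixed. Stem and early progenitor genes had 4 of 25 promoters higher (16.0%, against 11.6% of all genes) and 1 lower. The count was 2 higher without double mutant replicate 2. Nkx2-3, a homeobox gene of stem cells and spleen, had 21.9%, 15.7% and 13.9% in the double mutant and 3.48% and 4.27% in wild type MEP. Hoxa9, a homeobox gene that is highly expressed in many myeloid leukaemias, had 9.62%, 18.2% and 10.8% over 20 CpGs against 0.564% and 0.771%, and without double mutant replicate 2 its difference of 12.2 points became 9.56. Erg, an ETS factor of stem cells, had 3.68%, 18.1% and 16.1% against 0.503% and 0%, and it lost its call without double mutant replicate 2 (9.62 points) and without wild type MEP replicate 2 (adjusted p = 0.0774). Hoxa7, with 7.09%, 12.6% and 19.4% against 3.06% and 3.02%, was the fourth to rise and is named outside the rule. Its difference, 10.004 points, lay at the 10 point limit, and the call was lost under 5 alternatives, among them limma and those without double mutant replicate 3 (6.82 points) or wild type MEP replicate 2 (9.98 points). Hoxb5 fell, with 44.4%, 50% and 64.3% against 85.6% and 91.0%.

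Other stem cell regulators were not called. Runx1, a master factor of blood stem cell formation, had 39.2%, 32.2% and 39.4% in the double mutant and 36.8% and 31.1% in wild type MEP. Meis1, the partner of Hoxa9, had 0.234%, 0.711% and 0.852% against 0.493% and 0%. Kit, which encodes the receptor used in the sort, had 0.524%, 0% and 0% against 0% and 0%. Gata2, a stem and progenitor factor, had 0%, 0.352% and 0.176% against 2.79% and 1.19% (adjusted p = 0.0383), a difference of -1.81 points that was under the 10 points asked for.

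Erythroid and megakaryocyte genes had 2 of 15 promoters higher (13.3%, against 11.6% of all genes) and 1 lower. Ank1, the ankyrin of the red cell membrane, had 21.5%, 20.3% and 16.5% over 27 CpGs against 2.57% and 4.23%. Rhd, a red cell membrane protein, had 83.9%, 91.0% and 89.6% against 54.5% and 73.4%, and Epor, the erythropoietin receptor, fell, with 11%, 2.58% and 5.22% against 20.5% and 40.2%. The Rhd call was lost without double mutant replicate 2 or 3 and without wild type MEP replicate 1, where its difference of 24.2 points became 14.8 (adjusted p = 0.182). The Epor call was lost without double mutant replicate 2, with limma and without wild type MEP replicate 2, where its difference of -24.0 points became -14.2 (adjusted p = 0.246). Klf1, the master factor of red cell genes, was read at 3 CpGs and had 1.45%, 0% and 0% against 0% and 0%.

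Itga2b encodes integrin alpha IIb, or CD41, of megakaryocytes and platelets, and its parts moved in opposite directions. At 6 CpGs (102317059 to 102317386) within 1 kb of start sites inside the gene (102317504 to 102319879 on the minus strand of chromosome 11) the double mutant libraries had 78.9%, 81.3% and 66.8% and the wild type MEP libraries 1.05% and 4.15%, a rise of 73.1 points. The promoter with the most CpGs, at start sites from 102328269 to 102328513, had 9.22%, 4.28% and 3.28% against 8.04% and 2.79% and was not called. The most upstream promoter, at 102331197 to 102331436, had 10.4%, 14.4% and 13.8% against 25.5% and 29.7% and was lower (adjusted p = 0.0354), a call lost under 8 alternatives, among them limma and those that left out any of the 5 libraries (adjusted p from 0.0501 to 0.230). An intronic window between these (chr11:102329001-102330000) had 24.1%, 13.4% and 8.61% against 78.5% and 71.9%, while Dnmt3a knockout MEP had 79.2% and 89.9% and Idh2 R140Q MEP 89.7% and 86.5%.

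Granulocyte and macrophage genes had 2 of 11 promoters higher (18.2%, against 11.6% of all genes) and 0 lower. At an unadjusted p under 0.05 the quasi-binomial test had 4 of the 11 higher (22.5% of all genes) and 0 lower. Limma called 1 higher (8.74% of all genes) and 0 lower. Fcgr3, which encodes the CD16 antigen that the sort selected against, had 22.0%, 26.8% and 22.0% over 44 CpGs in the double mutant and 6.85% and 6.67% in wild type MEP. Cebpe, a granulocyte factor, had 71.2%, 70.8% and 71.0% against 57.7% and 51.0%, and its call was lost under 10 alternatives, including those that left out any of the 5 libraries (adjusted p from 0.0528 to 0.300). Cebpa, which commits progenitors to the granulocyte line, had 0.0614%, 0.141% and 0.313% against 0.198% and 0.389% over 41 CpGs. Sfpi1, the gene of PU.1, had 0%, 0% and 0% against 4.59% and 3.00%, from 3 CpGs. Lymphoid genes had 2 of 18 higher (11.1%, against 11.6% of all genes) and 0 lower. At an unadjusted p under 0.05 in the quasi-binomial test the counts were 8 and 0, where 22.5% of all genes were higher. Limma called 2 higher (8.74% of all genes) and 0 lower. Of the 2 that rose, Bcl11b, a T cell factor, had 28%, 31.8% and 20.5% against 2.62% and 3.5%. Igll1, part of the pre-B cell receptor, had 96.2%, 92.6% and 93.1% against 76.6% and 69.9%.

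Imprinted genes, of which the parental copies differ in methylation, had 6 of 28 promoters higher (21.4%, against 11.6% of all genes) and 1 lower. Snrpn, a spliceosome gene expressed from the paternal copy, had 91.8%, 87.1% and 80.6% at 5 CpGs in the double mutant and 46.4% and 40.8% in wild type MEP. Grb10, a growth factor receptor adaptor, had 52.7%, 59.4% and 44.9% over 35 CpGs against 11.7% and 11.1%. Dlk1, a membrane regulator of differentiation, had 34.4%, 42.3% and 55.4% against 2.03% and 2.56%, and Rasgrf1, an exchange factor for Ras, had 34.8%, 44.6% and 35.5% against 0.99% and 2.63%. Zim1 and Igf2r were the remaining members that rose, and Nap1l5 fell, with 60.8%, 50.2% and 30.1% against 69.9% and 87.6%. The Igf2r call was lost under 8 alternatives, among them limma and those that left out any of the 5 libraries (adjusted p from 0.0516 to 0.193). The Nap1l5 call was lost under 4, among them limma and those without double mutant replicate 3 or wild type MEP replicate 2 (adjusted p from 0.114 to 0.260). Promoter coordinates here follow annotated start sites and need not be the imprinting control regions.

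Germline genes, which are methylated in somatic cells, had 1 promoter of 18 higher (5.56%, against 11.6% of all genes). In the same test 0 were lower (0.8% of all genes). At an unadjusted p under 0.05 the quasi-binomial test had 5 of the 18 higher, a share near the 22.5% of all genes, and 0 lower. Limma called 1 higher (8.74% of all genes) and 0 lower. Tdrd6, a germ granule protein, had 35.8%, 45.95% and 44.6% against 11.7% and 11.2%. The list had a median of 95.1% in the double mutant and 90.8% in wild type MEP, and a member above 90% cannot rise by 10 points.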

How the data were processed

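Reduced representation bisulfite libraries were taken as deposited, with 1 file each. The aligner was BSMAP 2.74 and the build mm9, per the submitters' processing notes. The deposited values used are counts of methylated and of all reads per cytosine, which stop at 65535 (reached at 15 of the CpGs used). The deposited methylation fraction was only checked against these counts. The sources used here give no trimming step, no removal of duplicate reads and no measured conversion rate. Duplicates cannot be recognised, so intervals and floors cover counting error only.

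Both strands of a CpG were summed, and an autosomal CpG was kept if each of the 5 libraries held 10 or more reads there (241527 of the 531747 reach 10 reads in all 15 libraries). All positions fell on CG in NCBIM37, and gencode vM1 gave genes and start sites. A window or promoter has as its level the share of methylated reads among all reads in it, and errors are SDs over libraries. Its reads are summed over its CpGs, so a read that covers several CpGs is counted at each. Start sites of a gene closer than 2 kb were joined into 1 promoter. A quasi-binomial model with 1 mean for each of the 7 groups of the series was fitted to every window and promoter, leaving out libraries with under 10 reads there (in 13776 windows and 972 promoters, none of them from the 5 libraries compared). Dispersions were squeezed towards a common value and kept at 1 or more, differences were tested with an F test, and p-values were adjusted by Benjamini-Hochberg over all windows or all promoters. On simulated data with 68179 windows, 200 each changed by 10, 20 and 30 points, this model recovered 16.0%, 41.0% and 70.5%, with 5.56% false among 270 calls. Limma recovered 7.00%, 19.5% and 29.5%, with 0.885% false among 113 calls. The simulated spread was drawn from the dispersions that the quasi-binomial model itself had fitted. Far fewer windows were changed than were called in the data, so these rates need not hold for the data.

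Named were the 12 largest rises and 8 largest falls among called windows with at least 4 CpGs, the 8 largest rises and 4 largest falls among called promoters with at least 5 CpGs (in both cases without overlap of library values), up to 4 called members per gene list, and Dnmt3a, Idh2, Tet2, Cdkn2a, Cdkn2b, Gata2, Klf1, Cebpa, Sfpi1, Hoxa9 and Meis1. The lists, the named genes and the comparison were chosen with earlier results of these data known. Further genes were added after their values were seen: loci noted as such, other list members, and runs. Software was R 4.3.3 with limma 3.58.1 and Python 3.11.15 with pandas 2.3.3, scipy 1.17.1, numpy 2.4.6, pysam 0.24.0 and matplotlib 3.10.9. Alternatives tried were 20 reads per CpG, windows of 500 bp, a 25 point difference, limma on log2 ratios, a fit to the 5 libraries alone, thinned reads, a replicate block and each library left out.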

Additional observations from a re-analysis of the deposited data

Results flagged for a closer look

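Y chromosome reads, which enter no comparison, were more frequent in the double mutant than in wild type MEP. They came to 357.1, 386.3 and 373.5 per 1000000 autosomal reads in double mutant replicates 1, 2 and 3 and to 54.0 and 56.7 in the wild type MEP libraries. The 4 Dnmt3a knockout libraries had 202.5 to 302.7 and the 4 Idh2 R140Q libraries 198.8 to 287.8, against 56.0 and 57.5 in wild type GMP. What the difference in sex chromosome content contributes to the autosomal differences was not tested, since every double mutant library lies on one side and every wild type MEP library on the other.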

How the results depend on the processing

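No named window or promoter that was called, and no mean level over all CpGs or a CpG class, changed direction under any alternative run. For the other called regions only the counts were compared. With limma 4770 windows were higher and 716 lower, and 1396 promoters higher and 58 lower. At 25 points 2583 windows were higher and 759 lower, and 778 promoters higher and 61 lower, which follows from the stricter limit. Leaving out each library in turn gave 5401 to 7598 windows higher, 995 to 1588 windows lower, 1583 to 1847 promoters higher and 84 to 139 promoters lower. The lowest counts of losses came without wild type MEP replicate 2, and the cause was not tested. The mean level difference ranged from 3.14 to 5.12 points over these fits. At 20 reads per CpG, in 500 bp windows, in the fit to the 5 libraries alone and in thinned reads the counts stayed within 1.5 times those reported, and plus and minus strand reads gave mean differences of 4.13 and 4.14 points. The double mutant and wild type MEP libraries share only the numbers 1 and 2. Deviations of same-numbered libraries were uncorrelated over windows (r = -0.0196, a description over 54271 windows), so no pairing was assumed. With the replicate block, which drops double mutant replicate 3, 7686 windows were higher and 1514 lower, 1906 promoters higher and 145 lower, and the mean difference was 4.46 points. Named windows kept their call under every alternative that gave a value for them. Apart from the 25 point limit, the promoters of Erg, Hoxa7, Hoxa9, Rhd, Epor, Cebpe, Mgmt, Esr1, Nkd1, Igf2r, Nap1l5 and Rpl35, the second Cdkn2a promoter and the most upstream Itga2b promoter each lost their call under at least 1, and Tet1 gained one. Depth limits single regions: summed over its CpGs, the median window held 155 to 179 reads in double mutant and 187 to 196 in wild type MEP libraries.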

Other observations

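All 19 autosomes had a higher mean level in the double mutant. The difference was smallest on chromosome 17, with 52.3% ± 0.540 (SD, n = 3) in the double mutant and 49.2% ± 1.29 (SD, n = 2) in wild type MEP. It was largest on chromosome 12, which holds Dnmt3a, with 58.3% ± 0.678 (SD, n = 3) against 52.8% ± 1.45 (SD, n = 2). Each autosome had p = 0.1 in the exact permutation test, the smallest possible.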
